A study of Mus musculus
Rattus norvegicus and Rattus norvegicus and Mus musculus with 18 samples.

Results

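The genes described here carry antigen presentation by MHC class I in 4T1 cells, a mouse mammary carcinoma line grown as a tumor in rats. They are 10 mouse genes chosen by symbol: B2m, H2-K1, H2-D1, Tap1, Tap2, Tapbp, Nlrc5, Psmb8, Psmb9 and Psmb10. All 10 are among the 17672 genes of the deposited mouse table. The 7 of these symbols that are also in the rat table of 14876 genes are given beside them as the host's values; H2-K1, H2-D1 and Tap2 were analysed only in the mouse table. Polyadenylated RNA was sequenced from the necrotic core and the non-necrotic rim of the primary tumor (5 libraries each, from the same 5 rats) and from the lung (5 libraries, described in the labels as lung metastasis). Of the lungs, 4 came from rats that also gave a core and a rim, and the other came from Rat3789. The hosts of all these groups were SRG rats, which are known to lack Rag2 and Il2rg and with them mature T, B and NK cells. They received 4T1 cells in the mammary fat pad, had no treatment and were sampled 27 days later. A single library of cultured 4T1 cells, the pellet, and 2 libraries of normal rat mammary gland without a graft were controls. The labels give the genotype of every sample as wildtype. The 4T1 cells are 1 line and the pellet is 1 library, so no comparison with the pellet has a replicate check.

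MHC class I molecules show peptides from inside a cell to CD8 T cells. The proteasome cuts proteins into peptides, the Tap1 and Tap2 transporter carries these into the endoplasmic reticulum, and tapasin (Tapbp) helps to load them onto a heavy chain (H2-K1 or H2-D1) that is paired with the light chain B2m. Interferon gamma raises most of these genes; Nlrc5 is the transactivator of class I promoters, and Psmb8, Psmb9 and Psmb10 replace Psmb5, Psmb6 and Psmb7 in the immunoproteasome. Tumor cells are known to lose these genes under attack by T cells, which the host here lacks.

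Reads could be told apart between the heavy chains only where their sequences differ, so a stretch of each kind is shown. Over 1119 aligned coding positions of GRCm38, 988 (88.3%) were the same in H2-K1 and H2-D1, and the longest run of identical bases was 91. In exon 4, the 90 bases at chr17:33997344-33997433 (minus strand, H2-K1) and at chr17:35265911-35266000 (plus strand, H2-D1) had 0 differences.
H2-K1: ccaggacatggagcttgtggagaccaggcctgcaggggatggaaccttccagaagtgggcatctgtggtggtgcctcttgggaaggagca
H2-D1: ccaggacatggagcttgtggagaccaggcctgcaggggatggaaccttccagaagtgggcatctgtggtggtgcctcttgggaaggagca
In exon 3, which codes for a part of the peptide groove, the 90 bases at chr17:33999312-33999401 (minus strand, H2-K1) and at chr17:35263984-35264073 (plus strand, H2-D1) differed at 17 positions, in capitals.
H2-K1: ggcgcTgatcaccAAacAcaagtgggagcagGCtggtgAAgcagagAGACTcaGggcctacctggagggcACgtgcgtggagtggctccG
H2-D1: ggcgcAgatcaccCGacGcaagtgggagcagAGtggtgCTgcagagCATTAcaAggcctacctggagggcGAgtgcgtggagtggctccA
Of the 990 stretches of 100 bases in the coding sequence of H2-D1, 93 (9.39%) occur unchanged in another annotated gene, most often H2-Q1 with 85. None of the 1011 stretches of H2-K1 did, nor any stretch of the other 8 genes. The reference is of the C57BL/6 strain, whereas 4T1 comes from BALB/c, which carries other alleles of these heavy chains. Levels of H2-D1 and H2-K1 are therefore uncertain, and reads of other class I heavy chains may be counted with H2-D1.

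In GRCm38, 7 of the 10 genes lie in the MHC region of mouse chromosome 17. They are Tapbp (chr17:33915899-33929292, plus strand), H2-K1 (chr17:33996017-34000347, minus), Psmb9 (chr17:34181987-34187764, minus), Tap1 (chr17:34187553-34197225, plus), Psmb8 (chr17:34197721-34201454, plus), Tap2 (chr17:34203527-34216321, plus) and H2-D1 (chr17:35262730-35267499, plus). Psmb9 and Tap1 point away from each other, with starts 211 bases apart, and their 5′ ends overlap. B2m lies on chromosome 2 (chr2:122147686-122153083, plus) and overlaps Patl2 on the other strand. Nlrc5 (chr8:94434356-94527272, plus) and Psmb10 (chr8:105935735-105938444, minus) are on chromosome 8. Of the 10 genes, only H2-K1 and H2-D1 overlap no annotated gene. Whether the counting used strand is not known here, so reads of overlapping genes may be shared.

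Values are the deposited normalized CPM (read counts scaled to a common library size, on the voom scale). Libraries held 15346400 to 26669410 reads on mouse genes and 3146720 to 10015352 on rat genes, and no member had fewer than 168 mouse reads in a library. In the gland, which holds no mouse cells, 375046 and 428335 reads fell on mouse genes. From these, the share of a member's mouse reads that came from rat RNA was estimated at 0.116 to 1.86% in the core, 0.306 to 5.38% in the lung and 0.0983 to 2.90% in the rim. Tap2 has no estimate. In the pellet, which holds no rat cells, 213086 reads fell on rat genes. The share of a member's rat reads that came from mouse RNA is not given here. The lung of Rat3789 stood apart: its summed rat leukocyte markers (7 genes) were the highest of the lungs at 28117 CPM, and its summed rat epithelial markers (5 genes) the lowest at 56.8 CPM, against medians of 13285 and 946.7 CPM over the 5 lungs. Summed rat epithelial markers were at 234 and 204 CPM in the rims of Rat3876 and Rat3877, above the 69.0 to 133 CPM of the other rims, so results between core and rim were also computed without these rats. None of 9 T and NK cell markers is in the mouse table, and mouse leukocyte markers (5 of 7 in the table) summed to 10.7 to 24.7 CPM in the core, 5.14 to 6.90 CPM in the lung and 5.71 to 11.0 CPM in the rim, with Tyrobp and Csf1r not among them. The cells' label was checked by 5 epithelial markers, which summed to 2276 to 3753 CPM in the core, 1874 to 2822 CPM in the lung and 3887 to 4794 CPM in the rim.

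Per kilobase of annotated exon, B2m had the highest level of the 10 in the rim, with 1154 ± 153 CPM per kb (SD, n = 5). H2-D1 followed at 496 ± 97.0 CPM per kb and H2-K1 at 290.0 ± 59.2 CPM per kb. Tapbp (42.6 ± 7.92), Psmb10 (32.2 ± 3.84) and Psmb8 (21.9 ± 3.89 CPM per kb) formed a middle group. Tap2 (11.6 ± 2.33), Nlrc5 (8.87 ± 1.29), Tap1 (8.53 ± 1.44) and Psmb9 (6.60 ± 1.88 CPM per kb) were lowest, and the mean ± SD of neighbours among these 4 overlapped. Light chain and heavy chain transcripts were thus far above those of the transporter and of the transactivator in every group.

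**Figure D1:**
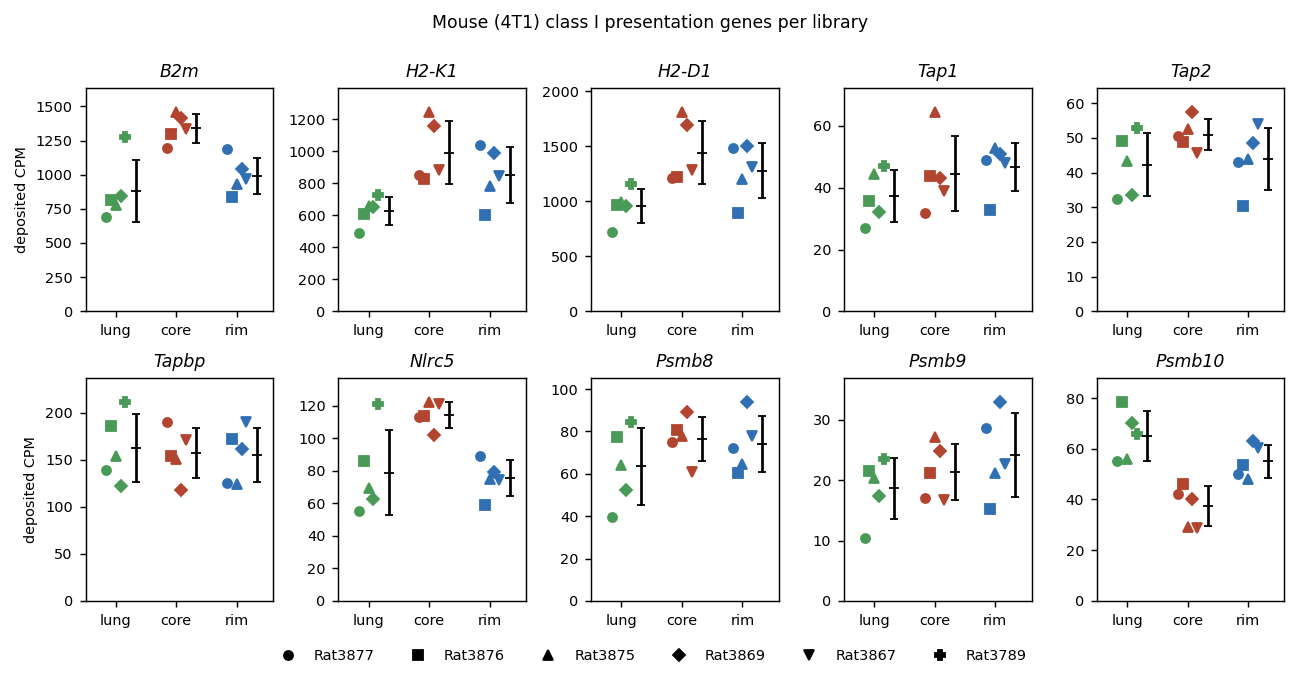
Deposited CPM (linear axis from 0) of each of the 10 mouse genes in the lung, core and rim libraries; marker shape gives the rat, and the black bar beside each group its mean and SD (n = 5). B2m and Nlrc5 were higher in all core libraries than in all rim libraries and Psmb10 was lower in all of them, while the lung of Rat3789 was the highest lung for 9 of the 10 genes.

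The first comparison asks how the core differed from the rim of the same tumors. In mouse genes, Nlrc5 and B2m were higher in the core and Psmb10 was lower; the other 7 members did not pass the test (limma on log2 CPM with the rat as a block, Benjamini-Hochberg adjusted over 13070 genes, adjusted p under 0.05). The 3 called members of 10 stand against 19.8% of all tested genes called, 10.1% higher and 9.63% lower in the core. The median log2 difference was 0.12 over the members and 0.01 over all tested genes. Whether groups overlap was computed for members only, here and in the later comparisons. No share of all genes can therefore be set beside groups that do not overlap. The groups are bulk tissue, so a change in the number of a kind of tumor cell and a change in RNA per cell cannot be told apart.

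Nlrc5 had 113, 114, 122, 102 and 121 CPM in the cores of Rat3877, Rat3876, Rat3875, Rat3869 and Rat3867, against 89.3, 58.9, 74.8, 79.1 and 74.6 CPM in their rims. Each core was above every rim. The log2 difference, core minus rim, was 0.61 ± 0.11 (SE, limma adjusted p = 0.00772), higher in the core of 5 of 5 rats, and leaving out any 1 rat kept it between 0.53 and 0.68 with adjusted p of at most 0.0377.

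B2m, the light chain of every class I molecule, had 1193, 1296, 1459, 1413 and 1335 CPM in the same cores, against 1187, 836, 933, 1042 and 965 CPM in the rims. The groups did not overlap, although the core and the rim of Rat3877 were almost equal. The log2 difference was 0.44 ± 0.12 (SE, limma adjusted p = 0.0309). The call was lost without Rat3867 (adjusted p = 0.102), Rat3869 (0.0581), Rat3875 (0.127) or Rat3876 (0.0986), with differences of 0.39 to 0.55 over the 5 omissions; without Rat3876 and Rat3877 together it was 0.52 (adjusted p = 0.0379).

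Psmb10, the immunoproteasome subunit that takes the place of Psmb7, had 42.3, 45.9, 29.0, 40.3 and 28.9 CPM in the cores and 49.97, 53.6, 47.9, 63.0 and 60.4 CPM in the rims. Every core lay below every rim. The log2 difference was -0.58 ± 0.14 (SE, limma adjusted p = 0.0213), lower in the core of 5 of 5 rats. The call was lost without Rat3867 (-0.46, adjusted p = 0.0763), Rat3869 (-0.56, adjusted p = 0.0530) or Rat3875 (-0.54, adjusted p = 0.0822).

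The heavy chains overlapped between the regions. H2-K1 had 849, 824, 1245, 1158 and 879.8 CPM in the cores, against 1036, 601, 784, 991 and 848 CPM in the rims, a log2 difference of 0.22 with a 95% interval of -0.09 to 0.54 (limma adjusted p = 0.292). H2-D1 had 1212, 1220.0, 1814, 1694 and 1282 CPM in the cores, against 1488, 893, 1199.5, 1504 and 1314 CPM in the rims (log2 difference 0.18, 95% interval -0.14 to 0.50, adjusted p = 0.409). Both were lower in the core than in the rim of Rat3877 and higher in the cores of Rat3876, Rat3875 and Rat3869.

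The peptide transporter and tapasin also overlapped. Tap1 averaged 44.5 ± 12.1 CPM in core libraries and 46.7 ± 7.90 CPM in rim libraries (SD, n = 5 each). Tap2, the partner of Tap1 in the transporter, averaged 51.0 ± 4.44 CPM in core libraries and 43.9 ± 8.82 CPM in rim libraries. Tapbp averaged 157 ± 26.6 CPM in core libraries and 155 ± 28.8 CPM in rim libraries. Their 95% intervals of the log2 difference were -0.45 to 0.27, -0.07 to 0.54 and -0.31 to 0.36, so changes within these bounds are not excluded.

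The other 2 immunoproteasome subunits overlapped between the regions. Psmb8 had 60.7 to 89.2 CPM in core libraries and 60.6 to 94.1 CPM in rim libraries, with medians of 77.7 and 72.4 CPM and a log2 difference of 0.06 ± 0.12 (SE, limma adjusted p = 0.776). Psmb9 had 16.7 to 27.1 CPM in core libraries and 15.3 to 32.999 CPM in rim libraries, with medians of 21.2 and 22.7 CPM and a log2 difference of -0.15 ± 0.19 (SE, limma adjusted p = 0.613).

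**Figure D2:**
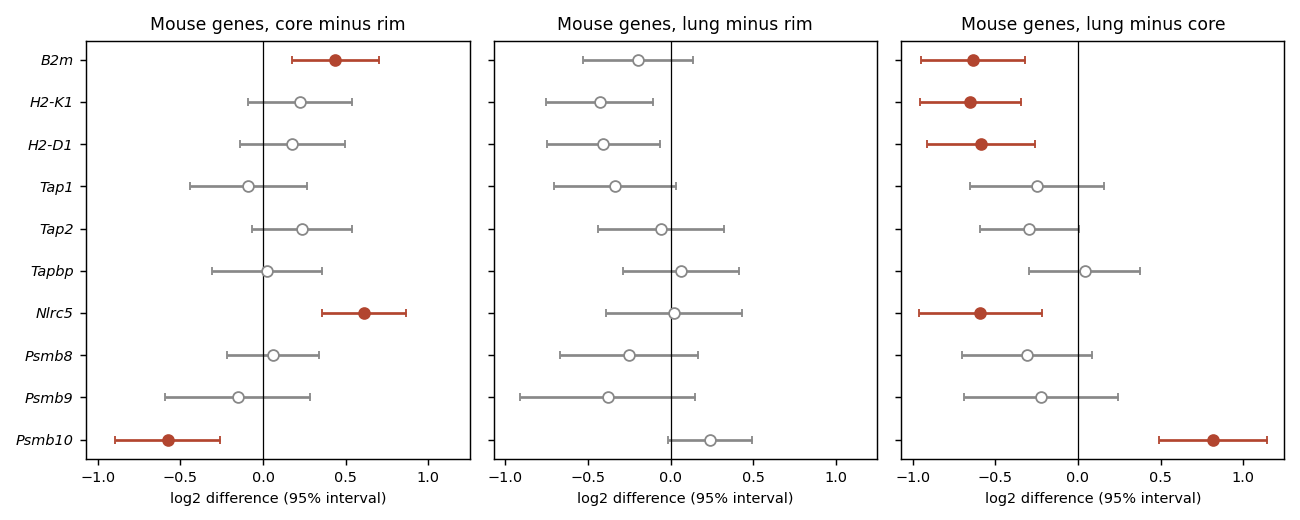
Log2 differences of the 10 mouse genes for core minus rim, lung minus rim and lung minus core; points are limma estimates, bars 95% intervals, and filled red points have an adjusted p under 0.05. B2m (0.44) and Nlrc5 (0.61) lie right of 0 and Psmb10 (-0.58) left of it in core minus rim, and 0 of 10 points are filled in lung minus rim.

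Other genes of the pathway were read from lists. Of 15 tested further mouse class I heavy chains, 1 was higher in the core: Mr1, which shows vitamin metabolites to MAIT cells, at a log2 difference of 0.80 (limma adjusted p = 0.0130). Of 8 loading and trimming genes, Hspa5, an endoplasmic reticulum chaperone, was higher (0.66, adjusted p = 0.0463) and Uggt1, a sensor of misfolded glycoproteins, was lower (-0.46, adjusted p = 0.0125). None of 8 constitutive proteasome subunits and none of 3 subunits of the PA28 activator passed in limma, with 1 and 0 of them at an unadjusted p under 0.05.

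Among 13 tested transactivators and partners, Rfx5, a factor that binds class I and class II promoters with Nlrc5 or Ciita, was higher in the core (0.47, limma adjusted p = 0.0451), and so was Irf2 (0.34, adjusted p = 0.0469). Of 6 tested interferon receptor and kinase genes, Ifngr1 (0.59, adjusted p = 0.00857) and Ifnar2 (0.50, adjusted p = 0.0450) were higher in the core. The list held 8 genes, and the ligands Ifng and Ifnb1 were not among those tested. Of 5 tested interferon-induced genes outside presentation, Cd274, which codes for the checkpoint ligand PD-L1, was higher in the core (1.14, adjusted p = 0.0219) and Gbp2, a guanylate-binding protein, was lower (-0.58, adjusted p = 0.0200). Ezh2, the catalytic subunit of polycomb repressive complex 2, was lower in the core (-0.60, adjusted p = 0.00580), 1 of 5 tested polycomb genes called.

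Other properties of the core moved with these genes. All 4 dividing-cell genes were lower in the core, with summed levels of 387 to 679.5 CPM in core libraries and 1119 to 1675 CPM in rim libraries, and 4 of 5 epithelial markers were lower. Mouse Cd74, the class II invariant chain, was higher at 13.4 ± 5.03 CPM in core libraries against 2.75 ± 1.13 CPM in rim libraries (SD, n = 5 each; limma adjusted p = 0.00252). Mouse Ptprc, which marks all leukocytes, stayed at 0.0724 to 0.631 CPM in core libraries and 0.0748 to 0.531 CPM in rim libraries. The part of these differences in the results for the members was not tested.

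The second comparison asks how 4T1 transcripts of the lung differed from those of the rim. No member of 10 passed the test over 12970 genes by limma, of which 20.1% were called (9.91% higher and 10.2% lower in the lung); 2 had an unadjusted p under 0.05, and edgeR called 1, H2-K1. The median log2 difference was -0.22 over the members and 0.01 over all tested genes. H2-K1 had 492, 607, 659, 649 and 727 CPM in the lungs of Rat3877, Rat3876, Rat3875, Rat3869 and Rat3789, with a log2 difference from the rim of -0.43 ± 0.15 (SE, limma adjusted p = 0.0610). H2-D1 had 719, 970.4, 993, 959 and 1154 CPM in these lungs, with a difference of -0.41 ± 0.16 (adjusted p = 0.0848). Both heavy chains overlapped with the rims, mainly through the low rim of Rat3876.

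The lung of Rat3789 set the B2m value. B2m had 688, 817, 779 and 847 CPM in the other 4 lungs and 1278 CPM in that of Rat3789, which was above every rim. The log2 difference of lung and rim was -0.20 ± 0.15 (SE, limma adjusted p = 0.390) with all lungs. Without Rat3789, both B2m (-0.34, limma adjusted p = 0.0464) and H2-K1 (-0.49, adjusted p = 0.0457) were called lower in the lung. The share of all genes called in this refit is not reported here. Without Rat3876, H2-K1 (-0.54, adjusted p = 0.0379) and H2-D1 (-0.54, adjusted p = 0.0462) were called lower. In that refit 1298 of 12704 tested genes were called, 598 higher and 700 lower in the lung.

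Nlrc5 spread widely in the lung, at 55.2, 86.0, 69.2, 62.5 and 121 CPM in the order of rats above, and the value from Rat3789 was as high as in the cores. Its log2 difference from the rim was 0.02 with a 95% interval of -0.39 to 0.43. Psmb10 had 55.1, 78.6, 55.8, 70.2 and 65.7 CPM in the lungs, higher than in the rim in 4 of 4 shared rats but overlapping as groups (0.24, 95% interval -0.02 to 0.49, limma adjusted p = 0.169). Tap1, Tap2, Tapbp, Psmb8 and Psmb9 had differences of -0.34, -0.06, 0.06, -0.25 and -0.38 and none was called.

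Of 15 tested further class I heavy chains, 6 were lower in the lung than in the rim and none was higher, where 10.2% of all tested genes were called lower. They were H2-T3 (-0.85, limma adjusted p = 0.0175), H2-Q7 (-0.81, adjusted p = 0.0449), H2-Q4 (-0.58, adjusted p = 0.0351), H2-Q1 (-0.54, adjusted p = 0.0410), H2-T22 (-0.47, adjusted p = 0.0125) and H2-M3 (-0.37, adjusted p = 0.0432). H2-Q4 averaged 300.1 ± 46.4 CPM in the lung and 457 ± 117 CPM in rim libraries (SD, n = 5 each). H2-Q1 shares 85 stretches of 100 bases with H2-D1, and H2-Q4 is identical to H2-D1 at 75.6% of aligned coding positions. Sharing of sequence among the 6 genes was not measured, so their calls may not be independent. Of 8 constitutive proteasome subunits, Psmb5 (0.48, adjusted p = 0.0116), Psmb7 (0.33, adjusted p = 0.0241) and Psmb4 (0.33, adjusted p = 0.0120) were higher in the lung. Of 6 tested interferon-induced genes, Socs1, a feedback inhibitor of interferon signalling, was higher in the lung (1.11, adjusted p = 0.0160), and the guanosine triphosphatases Irgm1 (-0.52, adjusted p = 0.0405) and Gbp2 (-0.38, adjusted p = 0.0476) were lower. Also lower were Jak2, a kinase of interferon receptors (-0.70, adjusted p = 0.0406), Ezh2 (-0.34, adjusted p = 0.0141) and Nfyb, a subunit of the promoter factor NF-Y (-0.27, adjusted p = 0.0359), each the only call in its list. All 5 mouse epithelial markers were lower in the lung; the part of this in the values of the members was not tested.

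The third comparison sets the lung against the core and shares libraries with both others. Of the 10 members, 5 were called by limma, against 36.3% of 13058 tested genes, 17.1% higher and 19.1% lower in the lung. H2-K1 (-0.65 ± 0.14, adjusted p = 0.00332), B2m (-0.63 ± 0.15, adjusted p = 0.00476), Nlrc5 (-0.59 ± 0.17, adjusted p = 0.0174) and H2-D1 (-0.59 ± 0.15, adjusted p = 0.00934) were lower in the lung on the log2 scale (SE). Psmb10 was higher (0.82 ± 0.15, adjusted p = 0.00125). For H2-K1 and H2-D1 every lung lay below every core, and for Psmb10 every lung lay above every core. The share of all genes whose lung and core values separate in this way was not computed. With the rat as a block over the 4 shared rats, which leaves out Rat3789 and Rat3867, 8 members were called, Tap1 (-0.38, adjusted p = 0.0208), Tap2 (-0.42, adjusted p = 0.0435) and Psmb8 (-0.50, adjusted p = 0.0272) being added as lower. This blocked fit tested 12746 genes. The share of them called is not reported here, and the 36.3% above belongs to the fit without a block. Tap2 was also called without Rat3789 and with no block (-0.38, adjusted p = 0.0382). The Nlrc5 call was lost without Rat3875 (-0.53, adjusted p = 0.0871) or Rat3877 (-0.48, adjusted p = 0.0793).

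Of the further class I heavy chains, 13 of 15 tested were lower in the lung than in the core and none was higher. Mr1 (-1.31, limma adjusted p = 0.000225), H2-T3 (-1.07, adjusted p = 0.00310), H2-Q4 (-0.75, adjusted p = 0.00462), H2-Q10 (-0.73, adjusted p = 0.00311), H2-Q1 (-0.67, adjusted p = 0.00877) and H2-K2 (-0.64, adjusted p = 0.00854) had the largest differences. Of 8 constitutive proteasome subunits, 5 were higher in the lung: Psmb7 (0.62, adjusted p = 0.000296), Psmb5 (0.41, adjusted p = 0.0299), Psmd1 (0.37, adjusted p = 0.00828), Psma1 (0.31, adjusted p = 0.0409) and Psmb1 (0.29, adjusted p = 0.0314). The receptors Ifngr1 (-0.70, adjusted p = 0.00945), Ifngr2 (-0.65, adjusted p = 0.00160) and Ifnar2 (-0.42, adjusted p = 0.0170) were lower. Of 6 tested interferon-induced genes, Cxcl10, a chemokine for T cells (1.85, adjusted p = 0.0352), and Socs1 (1.31, adjusted p = 0.00228) were higher in the lung and Cd274 was lower (-0.54, adjusted p = 0.0491). Mouse Cxcl10 was low throughout, at 0.615 to 5.03 CPM in the lung and 0.166 to 1.28 CPM in the core, with as few as 3 reads in a library. Of 13 tested transactivators and partners, Rfxank, a partner of Rfx5 (0.41, adjusted p = 0.0201), and Nfyc, an NF-Y subunit (0.28, adjusted p = 0.0312), were higher, and Irf2 (-0.33, adjusted p = 0.0178) and Rela, a subunit of NF-kB (-0.30, adjusted p = 0.0410), were lower. Of 5 polycomb genes, Ezh2 was higher (0.26, adjusted p = 0.0491) and Ezh1, its alternative in the complex, was lower (-0.51, adjusted p = 0.00884).

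Other properties of the cells moved with lung against core as well. All 4 dividing-cell genes were higher in the lung, Mki67 (1.63), Top2a (1.46), Ccnb1 (1.38) and Cdk1 (0.86 on the log2 scale), with summed levels of 1092 to 1650 CPM in the lung and 387 to 679.5 CPM in the core. Of 5 epithelial markers, Cdh1 (-2.38, limma adjusted p = 0.000231) and Epcam (-1.91, adjusted p = 7.05e-05) were lower, and mouse Cd74 was lower too (-2.72, adjusted p = 3.3e-05). The part of these differences in the values of the members was not tested.

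The cultured pellet shows the same cells outside the host. Over the genes of the mouse table, the pellet held 29366199 reads, and its levels, as CPM over these genes, are given with exact 95% Poisson intervals that cover counting error only. Nlrc5 was at 6.67 CPM in the pellet (196 reads, interval 5.77 to 7.68). Its mean in the lung was 12.1-fold, in the core 16.6-fold and in the rim 11.3-fold that of the pellet, the largest ratio of the 10 members in each. The pellet had a lower CPM than any tumor or lung library for all members but Psmb10. The share of all genes with this pattern was not computed, so the count has no background beside it.

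Ratios to the pellet in lung, core and rim were 4.94, 5.60 and 5.59 for Psmb8 and 4.10, 4.43 and 5.18 for Psmb9. Tap1 stood at 3.54, 3.97 and 4.31, and H2-K1 at 2.55, 3.78 and 3.37. B2m stood at 2.16, 3.09 and 2.37, H2-D1 at 1.95, 2.75 and 2.52, Tap2 at 2.17, 2.46 and 2.19, and Tapbp at 2.71, 2.46 and 2.51. Psmb10 alone was near the level of culture, at 1.40, 0.757 and 1.15. In all, 8 members in the lung, 9 in the core and 9 in the rim were at least 2-fold above the pellet, against 23.9%, 24.6% and 24.6% of the genes compared. These had more than 3 reads in the pellet and at least 1 CPM in it or in the group mean. They were 13234, 13248 and 13236 of the 17672 genes. Genes with fewer pellet reads, among which strongly raised ones can lie, are left out, so the shares of all genes may be higher. At least 4-fold above the pellet were Nlrc5, Psmb8 and Psmb9 in the lung and in the core, and these and Tap1 in the rim, against 9.38%, 10.8% and 9.95% of the genes compared. The counts of members depend on the scaling. With TMM factors and the same filter, 5, 9 and 7 members were at least 2-fold above the pellet in lung, core and rim, against 16.1%, 19.1% and 17.9% of the genes compared. At least 4-fold above it were then Nlrc5 alone in the lung, Nlrc5 and Psmb8 in the core, and Nlrc5, Psmb8 and Psmb9 in the rim, against 6.80%, 8.71% and 7.72% of these genes. Psmb10 was then at 1.08, 0.618 and 0.916 of the pellet, so its direction in the rim turned, while the other 9 members stayed above the pellet in every tumor and lung library. With these factors, too, the share of all genes above the pellet in every library was not computed.

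**Figure D3:**
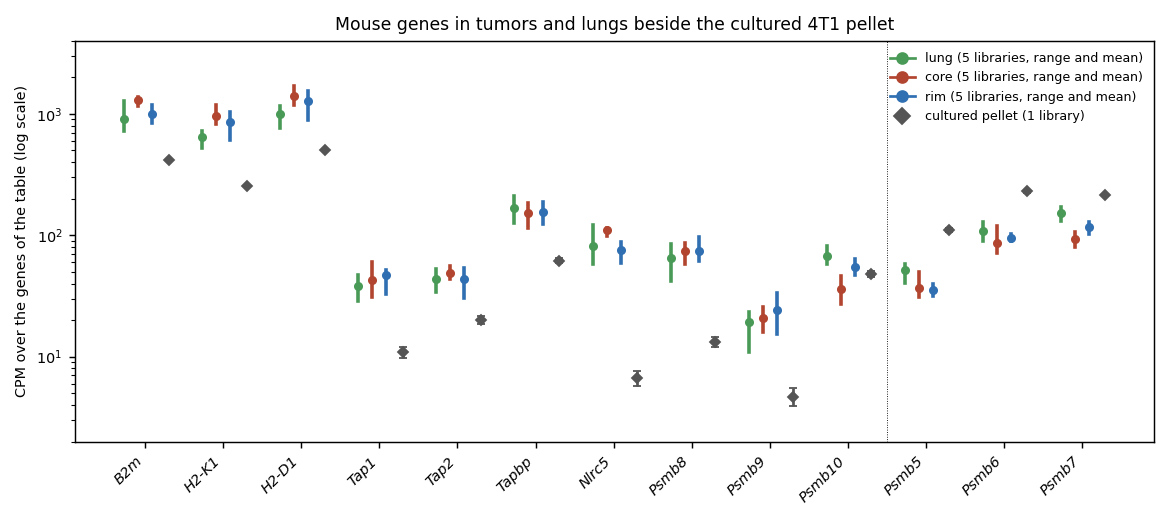
Mouse CPM over the genes of the table (log axis) of the 10 members and, right of the dotted line, of Psmb5, Psmb6 and Psmb7; lines show the range and points the mean of 5 libraries, and diamonds the pellet with its 95% Poisson interval. Nlrc5 is 16.6-fold above the pellet in the core, whereas Psmb5 is at 0.334 of the pellet there.

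The constitutive subunits stood on the other side of the pellet. Psmb5, the subunit that Psmb8 replaces, was at 0.469 of the pellet in the lung, 0.334 in the core and 0.324 in the rim. Psmb6, the counterpart of Psmb9, was at 0.471, 0.379 and 0.417, and Psmb7, the counterpart of Psmb10, at 0.709, 0.432 and 0.547. All 8 constitutive subunits of the list were below the pellet in each of the 3 groups. At least 2-fold lower were 2 of them in the lung, 7 in the core and 5 in the rim, against 10.6%, 15.3% and 12.0% of the genes compared. With TMM factors these were 6, 8 and 8, against 18.4%, 21.5% and 19.7%. Dividing-cell genes were mixed: all 4 were below the pellet in the core, and 3 of 4 in the lung and in the rim. Mki67 was the exception, at 2.11-fold the pellet in the lung and 1.97-fold in the rim. Top2a in the lung was near the pellet, at 0.986 of it. The share of all genes below the pellet was not computed.

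Ratios of reads within a library do not depend on its scaling. Psmb8 over Psmb5 was 0.754, 1.59, 1.24, 0.939 and 2.07 in the lungs, again in the order Rat3877, Rat3876, Rat3875, Rat3869 and Rat3789. It was 1.95, 2.38, 2.29, 1.74 and 1.87 in the cores and 1.81, 1.54, 1.75, 3.06 and 2.44 in the rims, with Rat3867 last. In the pellet it was 0.120, below every library. Psmb9 over Psmb6 was 0.181 ± 0.0604 in the lung, 0.244 ± 0.0692 in core libraries and 0.252 ± 0.0656 in rim libraries (SD, n = 5 each), against 0.0203 in the pellet. Psmb10 over Psmb7 differed less, at 0.446 ± 0.0997, 0.388 ± 0.0695 and 0.472 ± 0.0854 in lung, core and rim, against 0.223 in the pellet.

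None of 9 comparisons of these ratios passed after adjustment. The smallest exact permutation p (two-sided) was 0.0397, for Psmb8 over Psmb5 in lung against core, with a log2 difference of -0.72 ± 0.27 (SE, n = 5 each; adjusted p = 0.286). The same ratio in lung against rim differed by -0.73 ± 0.32 on the log2 scale (SE, exact p = 0.0635, adjusted p = 0.286). Core and rim differed by -0.02 in Psmb8 over Psmb5, -0.04 in Psmb9 over Psmb6 and -0.28 in Psmb10 over Psmb7; with 5 rats the exact sign-flip test cannot give a p below 0.0625.

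**Figure D4:**
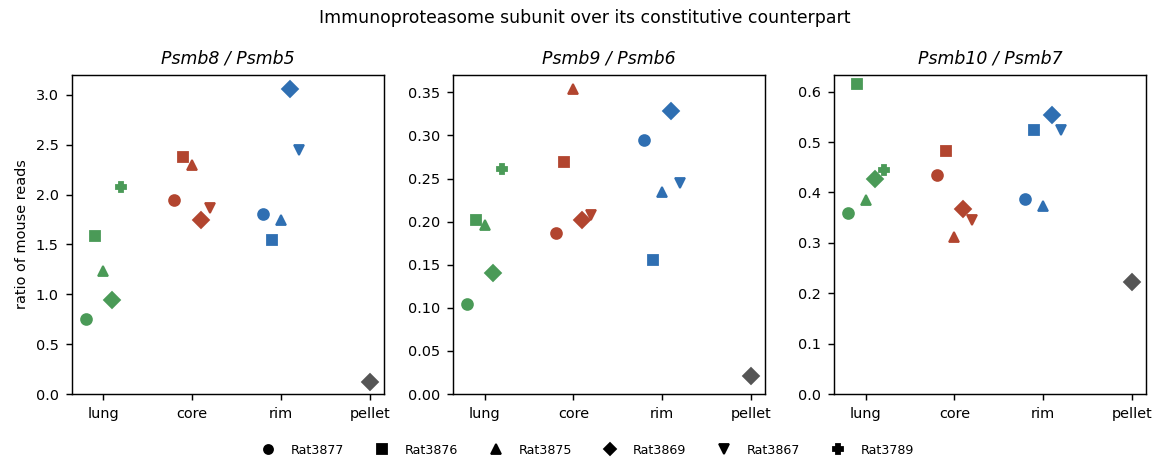
Reads of each immunoproteasome subunit over its constitutive counterpart (linear axis from 0) in lung, core and rim libraries, by rat, and in the pellet (1 library, diamond in grey). For Psmb8 over Psmb5 the tumor and lung libraries lie between 0.754 and 3.06 and the pellet at 0.120.

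The host showed another order of the same genes. Of the 7 shared symbols, rat Psmb8 and Psmb10 were higher in the core than in the rim and 5 did not pass, against 37.6% of 13559 rat genes called, 17.5% higher and 20.1% lower. Rat Psmb8 had 116, 116, 119.7, 116 and 111 CPM in the cores, against 102, 66.1, 63.5, 69.2 and 85.9 CPM in the rims (log2 difference 0.61 ± 0.12, SE, limma adjusted p = 0.00559). Rat Psmb10 had 91.7, 89.7, 80.3, 93.4 and 82.4 CPM in the cores, against 77.2, 69.5, 59.1, 72.5 and 65.1 CPM in the rims (0.35 ± 0.08, adjusted p = 0.01005). Both genes were higher in the core of 5 of 5 rats and their groups did not overlap. Without Rat3876 and Rat3877 the Psmb10 call was lost (0.38, adjusted p = 0.0685).

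Rat B2m averaged 1711 ± 234 CPM in core libraries and 1996 ± 339 CPM in rim libraries (SD, n = 5 each), with a log2 difference of -0.22 (limma adjusted p = 0.286) that passed without Rat3869 (-0.37, adjusted p = 0.0354). Rat Nlrc5 averaged 10.2 ± 2.47 CPM in core libraries and 14.95 ± 7.29 CPM in rim libraries, and its core values rest on as few as 26 reads. It was not called (-0.44, adjusted p = 0.227), except after subtraction of reads estimated to come from mouse RNA (-0.89, adjusted p = 0.0470). That estimate rests on 1 rat Nlrc5 read in the pellet, beside 196 mouse Nlrc5 reads there, so the value after subtraction is uncertain. Rat Tap1, Tapbp and Psmb9 had differences of -0.10, -0.15 and 0.29. Of 19 rat class I heavy chains, 3 were lower in the core, RT1-N2 (-1.71, adjusted p = 0.00222), RT1-T24-3 (-1.63, adjusted p = 0.00298) and RT1-S3 (-1.62, adjusted p = 0.000758). Of all tested rat genes, 20.1% were called lower. RT1-N2 had as few as 4 reads in a core library. Summed over the 19 chains, levels had medians of 1787 CPM in core libraries and 1626 CPM in rim libraries. The classical RT1-A1 averaged 196 ± 32.6 CPM in core libraries and 225 ± 43.8 CPM in rim libraries.

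Around these genes, 6 of 7 tested constitutive proteasome subunits of the rat were higher in the core, led by Psmb7 (0.78, limma adjusted p = 0.000662), with Psmb4, Psmb6, Psma1, Psmd1 and Psmb1 at 0.25 to 0.44. Of 6 tested rat interferon-induced genes 3 were lower and 1 was higher in the core, and of 13 tested transactivators and partners 4 were lower and 1 was higher. Cxcl10 (-2.31, adjusted p = 0.000124), Igtp (-0.98, adjusted p = 0.00621), Gbp2 (-0.94, adjusted p = 0.00105) and Irf1 (-0.74, adjusted p = 0.00472) were lower in the core, whereas Cd274 was higher (1.11, adjusted p = 0.00229). Irf9 (-0.58, adjusted p = 0.0134), Rfx5 (-0.49, adjusted p = 0.0130) and Jak2 (-1.18, adjusted p = 0.000444) were also lower, while Irf2 (0.54, adjusted p = 0.00694) and Ifngr2 (0.60, adjusted p = 0.000719) were higher. Among loading genes the chaperones Hspa5 (0.38) and Canx (0.31) were higher and the peptide trimming enzyme Erap1 was lower (-0.28), with adjusted p of 0.0138, 0.0247 and 0.0314. The PA28 subunit Psme2 (0.37, adjusted p = 0.0404), the lipid-presenting Cd1d1 (0.62, adjusted p = 0.00467) and the polycomb subunit Eed (0.28, adjusted p = 0.0333) were higher. Leukocyte markers moved as well: 6 of 7 were higher in the core, with summed levels of 13244 to 16297 CPM in core libraries and 7690.1 to 9937 CPM in rim libraries. Of 9 rat T and NK markers 4 are in the table, led by Cd4, which rat macrophages also express. Cd8a was lower in the core (-2.13, limma adjusted p = 0.00673), at 4.04 ± 2.25 CPM in core libraries and 18.6 ± 11.9 CPM in rim libraries (SD, n = 5 each). Its values rest on as few as 7 reads in a core library and 29 in a rim library. The part of the cell makeup in the host's values was not tested.

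The host's lung is another tissue than the stroma of the primary tumor. In it, rat Psmb10 was higher than in the rim, at 89.1, 99.2, 85.0, 111 and 106 CPM in the lungs (log2 difference 0.51 ± 0.10, SE, limma adjusted p = 0.00472). Of the 7 shared symbols, only this 1 was called, against 22.1% of 13841 rat genes (10.5% higher and 11.6% lower). With the rat as a block over the 4 shared rats, Tap1 was called too (0.35, adjusted p = 0.0386), at 83.9 ± 12.0 CPM in the lung and 70.9 ± 15.4 CPM in rim libraries (SD, n = 5 each). Of the lists, the tapasin relative Tapbpl (0.37, adjusted p = 0.0183), Irf2 (0.60, adjusted p = 0.00225) and Ezh1 (0.37, adjusted p = 0.0371) were higher in the lung, and Jak2 (-0.67, adjusted p = 0.000770) and Socs1 (-1.001, adjusted p = 0.0120) were lower. Of 7 leukocyte markers 3 were higher in the lung. Cd8a was lower (-1.61, limma adjusted p = 0.0206), with as few as 29 reads in a lung library. The part of these markers in the host's values was not tested.

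Tumor and host changes between core and rim were set against each other within each rat. For Psmb10 the tumor gene was lower in the core of 5 of 5 rats (mean log2 difference -0.58) and the host gene was higher in 5 of 5 (0.35), so that tumor minus host was -0.93 ± 0.38 (SD, n = 5; exact sign-flip p = 0.0625, adjusted over 7 symbols 0.146). For B2m the tumor difference was 0.44 and the host difference -0.22, or 0.65 ± 0.40 apart, with the tumor above the host in 5 of 5 rats (exact p = 0.0625, adjusted 0.146). Psmb8 was -0.55 ± 0.28 apart, with the tumor below the host in 5 of 5 rats (exact p = 0.0625, adjusted 0.146). Nlrc5 was 1.06 ± 0.68 apart, with the tumor above the host in 4 of 5 (exact p = 0.125). The smallest p that 5 rats allow is 0.0625, so none of these could pass. Tap1, Tapbp and Psmb9 were 0.01, 0.17 and -0.45 apart. Host values were used here without subtraction of reads estimated to come from mouse RNA. For Nlrc5 that subtraction, which rests on 1 rat read in the pellet, took the host difference from -0.44 to -0.89, so its distance from the tumor is uncertain.

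**Figure D5:**
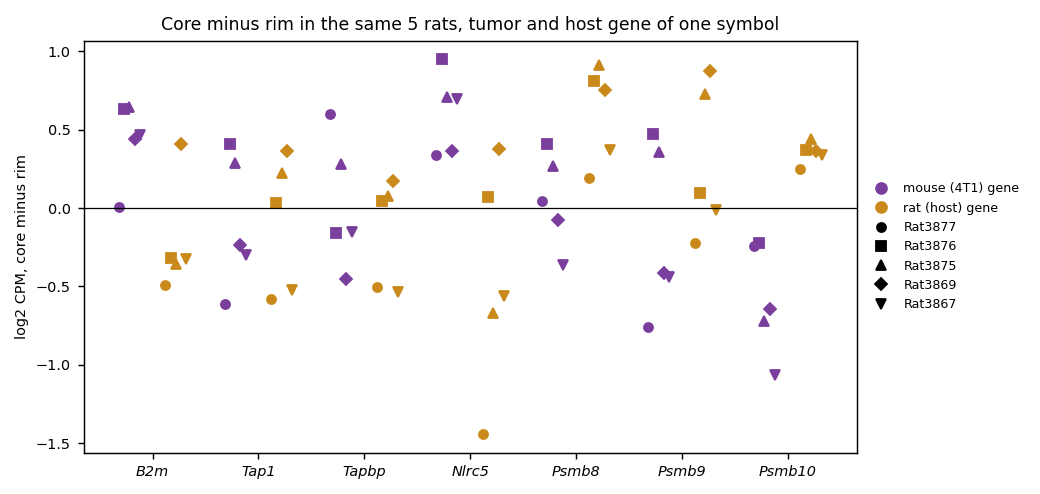
Core minus rim in log2 CPM for the mouse (4T1) gene, left, and the rat (host) gene of the same symbol, right, with 1 point per rat (n = 5). For Psmb10 all mouse points lie below 0 and all rat points above it, at means of -0.58 and 0.35.

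Across the 15 tumor and lung libraries the members did not vary as 1 group. Pearson's r of log2 CPM, which here describes libraries that share rats, tissue and scaling, had a median of 0.62 over 45 pairs of members. It was highest for H2-K1 with H2-D1 (0.991) and lowest for B2m with Psmb10 (-0.66), and it was negative in 12 pairs. H2-K1 and H2-D1 are identical at 88.3% of aligned coding positions, but no coding stretch of 100 bases of H2-K1 occurs in H2-D1. The part of their alike sequences in this r was not tested. The genes outside the members whose pattern was most like their mean were H2-K2 (r = 0.854), Gm11127 (0.843), H2-Q1 (0.840), Arhgef16 (0.832) and H2-Q4 (0.826) among 10721 genes. Of these 5, 3 are class I genes by name. Of the 100-base stretches of H2-D1, which is a member, 85 occur in H2-Q1 and 42 in Gm11127. Reads of these 2 genes may thus be shared with H2-D1, and the part of this in the likeness was not tested. The genes most like B2m alone were Gm16754 and Ctsl, a lysosomal protease, both with r = 0.926.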

How the data were processed

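The members and the gene lists were chosen with earlier results of these data known. The submitters' processing notes name Trim Galore, STAR, featureCounts, limma and the builds GRCm38 and Rnor_6.0; for versions, species assignment and strand setting, the sources used here give nothing. For tumor and lung libraries the authors deposited a normalized signal, per the file headers CPM: each value equals whole reads plus 0.5, times a library constant, and 100% came out whole within 0.01 reads. For the pellet and glands they deposited whole read counts per gene. Mouse and rat tables were scaled separately. Nothing in the labels says that rats were processed in separate batches.

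Log2 values of genes with at least 1 CPM in at least 5 compared libraries were tested with limma 3.58.1 (trend) in R 4.3.3, two-sided, with Benjamini-Hochberg adjustment over all genes, called at adjusted p under 0.05. Fold changes on this scale understate those of genes with few reads. Core and rim were blocked by the rat named in the labels; within-rat deviations correlated at -0.17, 0.17, 0.22, 0.15 and -0.01 over mouse genes and 0.30, 0.07, 0.06, 0.03 and 0.04 over rat genes (Rat3877, Rat3876, Rat3875, Rat3869, Rat3867). Lungs were compared without a block. Levels beside the pellet are CPM recomputed over the genes of the mouse table, without a test. Ratios and tumor against host used exact permutation. Recovered reads served edgeR 4.0.16, DESeq2 1.42.0 size factors and limma-voom as alternatives; the others were total-count and upper-quartile scaling, 2 other filters, 1 CPM added, subtraction of reads of the other species and omission of single rats. Omitting Rat3876 and Rat3877 together, scaling the pellet by TMM, and the total-count scaling and omission of rats for tumor against host were chosen after seeing the data. The fit was also run on simulated counts, which had no differences between rats and 1 spread setting for all genes. These settings differ from the data, and the outcome is not reported here. All 10 members were named whatever their values, and of each pathway list the called genes, at most 6 per comparison; 1 of these is not reported here, and marker lists are given mainly by counts and sums. Positions and sequences come from GENCODE's annotation of GRCm38. Replicate libraries differed by more than sampling noise (chi-square over degrees of freedom of at least 10.4 in mouse and 5.40 in rat genes). Poisson intervals cover counting error only.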

Additional observations from a re-analysis of the deposited data

Results flagged for a closer look

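In 6 of 60 groups of 5 libraries, 1 library lay far from the others by Dixon's criterion, which chance meets in about 1 of 20 groups. In the lung, mouse B2m was highest in Rat3789 at 1278 CPM, with 688 to 847 CPM in the other 4 lungs, and rat Psmb8 was highest in the same lung at 98.9 CPM, with 66.3 to 73.7 CPM in the others. The lung of Rat3875 was lowest in rat B2m at 1721 CPM (1874 to 1932 CPM in the others) and in rat Psmb9 at 58.3 CPM (67.4 to 70.1 CPM in the others). Rat Nlrc5 was highest in the core of Rat3876 at 14.4 CPM, with 8.35 to 10.02 CPM in the other cores. Mouse Tap1 was lowest in the rim of Rat3876 at 32.9 CPM, with 48.0 to 52.7 CPM in the other rims.

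Psmb10 moved in opposite directions in tumor and host. The mouse gene was lower in the core than in the rim of 5 of 5 rats and the rat gene was higher in 5 of 5, a tumor minus host difference of -0.93 on the log2 scale (exact sign-flip p = 0.0625, the smallest that 5 rats allow).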

How the results depend on the processing

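Nlrc5 in core against rim kept its call in all 16 alternatives. Of 704 values of members under alternatives, 654 kept direction and side of the threshold. Under edgeR, 1 member was called in lung against rim, and the share of all genes called by edgeR is not reported here. With the replicate block over 4 shared rats, 8 members were called in lung against core and 2 rat genes in lung against rim. The shares of all genes called with this block are not reported here. In this fit, Nlrc5 in lung against rim was -0.15, Tapbp in lung against core -0.027 and rat Psmb8 in lung against rim -0.044. This fit changed no other call of a member; it also leaves out Rat3789 and Rat3867, and without Rat3789 alone Tap2 in lung against core was called with no block (-0.38, adjusted p = 0.0382). Without Rat3876 and Rat3877, 1668 mouse and 3091 rat genes were called between core and rim, with 1 rat member, and Tapbp was -0.11, Psmb8 -0.057 and rat Tap1 0.021. Total-count scaling gave -0.023 for Tapbp in core against rim, 0.043 for rat B2m in lung against rim and -0.058 for the tumor and host difference of Tap1. It moved the median of all rat genes in lung against rim to 0.15 and the split of higher and lower calls to 1717 and 1108 (1285 and 1318 as reported) for mouse genes in lung against rim, 3053 and 1875 (2237 and 2499) in lung against core, and 2435 and 1255 (1458 and 1607) for rat genes in lung against rim. Rat Psmb8 in lung against rim was -0.016 with upper-quartile scaling and -0.0055 with DESeq2 size factors. The cause was not tested.

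Leaving out 1 rat at a time, calls ranged over 1171 to 2284 genes and 1 to 3 members in mouse core against rim, 1239 to 2809 genes and 0 to 2 members in lung against rim, 2852 to 4901 genes in lung against core, and 1384 to 4077 rat genes in lung against rim. Log2 differences ranged in core against rim from -0.21 to 0.041 (Tap1), -0.12 to 0.14 (Tapbp), -0.031 to 0.16 (Psmb8) and, in the rat, -0.21 to 0.025 (Tap1). In lung against rim they ranged from -0.25 to 0.061 (Tap2), -0.038 to 0.18 (Tapbp), -0.15 to 0.20 (Nlrc5) and -0.088 to 0.12 (rat Psmb8), and for Tapbp in lung against core from -0.062 to 0.16. Psmb8 over Psmb5 in core against rim ranged from -0.18 to 0.18 and Psmb9 over Psmb6 from -0.25 to 0.12. Tumor and host differences ranged from -0.085 to 0.16 for Tap1 and from -0.061 to 0.37 for Tapbp. With 5 libraries a group, fewer samples enter these fits.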
